A study of Mus musculus with 8 samples.

Results

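Immediate early genes were examined in sorted GABAergic nuclei of the mouse cortex. The set holds 10 genes, taken by symbol: Fos, Fosb, Fosl2, Junb, Npas4, Arc, Egr1, Egr3, Nr4a1 and Nr4a3. It was chosen with earlier results of these data known, so the shares of all genes given below are no test of the set. All 10 were found among the 55450 genes of the count tables, and 9 were among the 16448 genes with enough reads to be tested. The tenth, Fosb, had 5 to 13 reads per library and is given by its values only.

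Each library came from the cerebral cortex of 1 juvenile mouse. In both groups, Cre recombinase under a GABAergic neuron driver switched on a fluorescent nuclear reporter, and fluorescent nuclei were sorted for RNA. Control mice were Thra+/+. Mutant mice were Thra+/AMI and carried, in the same neurons, a Thra allele that encodes a dominant-negative thyroid hormone receptor. The driver line, the sex and the day of age are not given in the sources used here. Nor do these sources say whether mice were littermates or handled on 1 day, so p-values measure the spread between these samples only. They list 4 controls and 4 mutants, but the counts of mutants 7 and 10 differed in 0 of the 55220 genes that could be compared. The table of mutant 10 lists genes by symbol and the others by identifier, so genes whose symbol belongs to several identifiers were not compared. The totals of the whole tables were 10747169 counts in mutant 7 and 10754007 in mutant 10. The pair entered as 1 sample, represented by mutant 7, and 4 controls stand against 3 mutants, numbered 6, 7 and 8.

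Immediate early genes are transcribed within minutes of a strong stimulus, without the need for new protein. In neurons the stimulus is mostly synaptic activity, which raises calcium and activates kinases and the transcription factors CREB, SRF and MEF2 already present at these promoters. Most of the genes encode transcription factors that switch on a slower second set of genes, while some, such as Arc, act on the synapse itself. In cortical interneurons this programme is known to adjust the synapses that the cell receives. RNA inside the nucleus includes transcripts that have just been made.

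Promoter sequences are shown for the 5 genes that passed the test in this comparison and for Junb, which did not, since CREB binds the cAMP response element (CRE) in several of them. Each is the 250 bases before the transcription start in RefSeq, build GRCm38.p6, read 5′ to 3′. Capitals mark the CRE core TGACG, or its complement CGTCA where the core lies on the other strand.
Fos (chr12:85473640-85473889, plus strand): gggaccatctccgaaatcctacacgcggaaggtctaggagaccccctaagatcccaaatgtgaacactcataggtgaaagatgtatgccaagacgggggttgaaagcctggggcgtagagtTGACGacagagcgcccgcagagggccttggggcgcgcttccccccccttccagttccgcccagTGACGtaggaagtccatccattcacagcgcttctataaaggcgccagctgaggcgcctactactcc
Fosl2 (chr5:32136222-32136471, plus strand): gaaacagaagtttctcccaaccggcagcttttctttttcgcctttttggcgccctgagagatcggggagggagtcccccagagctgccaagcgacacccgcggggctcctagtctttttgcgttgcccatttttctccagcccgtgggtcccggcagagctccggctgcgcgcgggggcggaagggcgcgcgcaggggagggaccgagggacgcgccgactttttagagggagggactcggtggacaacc
Npas4 (chr19:4989972-4990221, minus strand): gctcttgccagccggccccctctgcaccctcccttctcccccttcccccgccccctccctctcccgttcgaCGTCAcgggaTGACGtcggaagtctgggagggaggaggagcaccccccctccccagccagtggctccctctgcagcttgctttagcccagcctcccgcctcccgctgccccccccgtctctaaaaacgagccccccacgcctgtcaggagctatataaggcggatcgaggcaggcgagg
Nr4a1 (chr15:101266596-101266845, plus strand): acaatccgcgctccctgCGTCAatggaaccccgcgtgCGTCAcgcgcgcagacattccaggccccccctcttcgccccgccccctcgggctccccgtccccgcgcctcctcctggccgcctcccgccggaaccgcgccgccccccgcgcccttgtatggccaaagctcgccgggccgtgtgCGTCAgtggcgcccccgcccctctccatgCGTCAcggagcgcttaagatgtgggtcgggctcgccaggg
Nr4a3 (chr4:48045055-48045304, plus strand): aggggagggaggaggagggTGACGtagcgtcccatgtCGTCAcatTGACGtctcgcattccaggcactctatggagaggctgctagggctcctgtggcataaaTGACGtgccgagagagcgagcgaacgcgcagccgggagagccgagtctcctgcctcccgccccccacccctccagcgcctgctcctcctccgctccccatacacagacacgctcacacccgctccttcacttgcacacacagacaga
Junb (chr8:84978749-84978998, minus strand): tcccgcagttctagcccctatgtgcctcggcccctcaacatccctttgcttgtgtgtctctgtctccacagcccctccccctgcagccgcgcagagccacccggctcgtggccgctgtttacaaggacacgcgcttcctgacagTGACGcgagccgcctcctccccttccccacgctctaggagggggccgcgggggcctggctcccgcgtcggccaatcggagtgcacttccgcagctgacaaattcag
The core was present in 6 of the 7 members with a RefSeq promoter, namely all except Fosl2. The windows of Fosl2, Npas4 and Nr4a1 lie inside the GENCODE spans of these genes given below, downstream of the outermost GENCODE start. Windows before other starts were not examined, so the lack of a core in Fosl2 holds for this window only. It was present in 17.8% of all 32851 RefSeq promoter windows of this length, which were not matched for base composition. Nr4a1 and Nr4a3 each held 4 cores, Fos and Npas4 held 2 each, and Fosb and Junb held 1 each. The full palindrome TGACGTCA, which contains the core on both strands, was in 0 of the 7 and in 1.55% of all windows. A TATA box (TATAAA, either strand) was in 1 of the 7, Fos, and in 12.4% of all windows. The CArG box bound by SRF and the AP-1 site TGANTCA (either strand) were in 0 of the 7 windows, against 1.47% and 6.75% of all windows. Only exact matches within these 250 bases were counted, so sites farther away or with a mismatch are not covered. The DR4 repeat, a known form of thyroid hormone response element, was in 0 of the 7 and in 0.0152% of all windows. The exact repeat is so rare, in 5 of 32851 windows, that its absence from 7 says nothing about receptor sites. Arc, Egr1 and Egr3 had no promoter entry.

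The comparison asks whether nuclei with the mutant receptor held more or less immediate early RNA than control nuclei. Of the 9 tested genes, 5 rose in mutants: Npas4, Nr4a3, Fos, Fosl2 and Nr4a1, by 1.49-fold to 2.15-fold (edgeR's quasi-likelihood test, adjusted p under 0.05 over all tested genes). None fell, and none had an unadjusted p under 0.05 in that direction. DESeq2 and limma-voom likewise called 0 of the 9 lower. Across all 16448 tested genes, 4.63% were called higher and 4.78% lower, 9.42% in all. At an unadjusted p under 0.05, 6 of the 9 were higher, against 10.9% of all tested genes. The median log2 fold change of the 9 genes was 0.82, and that of all tested genes was -0.01. All 9 fold changes were above 0, as were 48.0% of those of all tested genes. In 7 of the 10 genes, including the untested Fosb, every mutant lay above every control in CPM, the count scaled by TMM library size. Among all tested genes 11.2% had that arrangement. The calls did not hold in every fit without 1 library: without mutant 6 or without mutant 7 none of the 9 passed. Over all genes, 2.15% and 2.13% were called higher in those fits. In each of them 6 of the 9 were higher at an unadjusted p under 0.05, as were 8.86% and 8.36% of all genes.

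**Figure D1:**
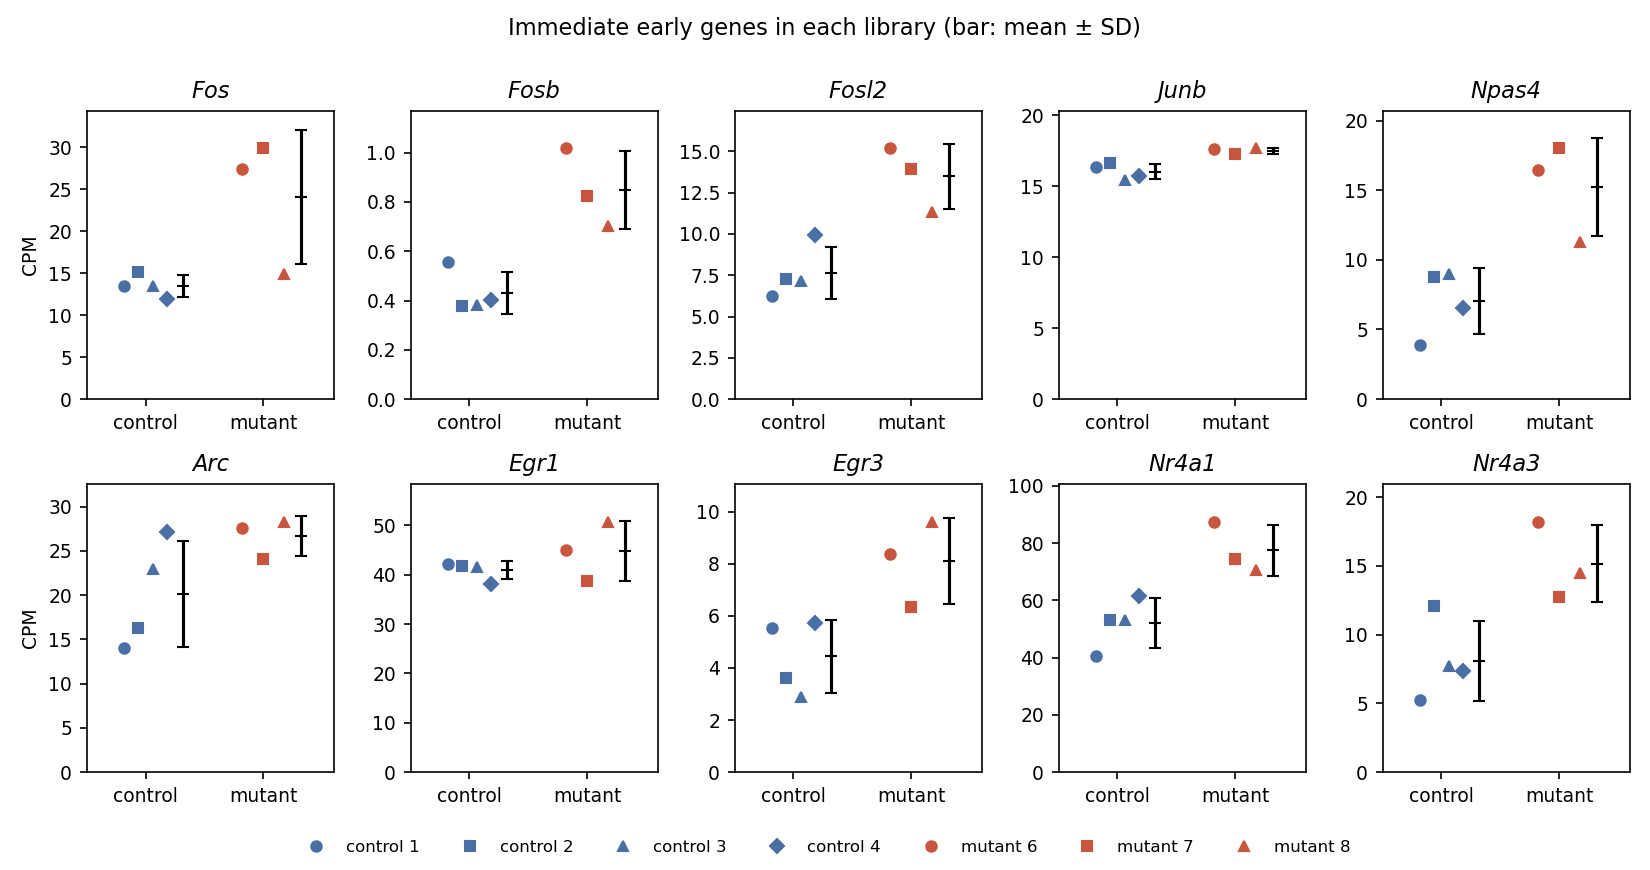
CPM (library-size scaled counts, y axis from 0, a scale of its own in each panel) of the 10 immediate early genes in 4 control and 3 mutant libraries, with the mean and SD of each group. The mutants lie above all controls in 7 panels, and overlap with them for Fos, Arc and Egr1.

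The Fos family pairs with Jun proteins to form AP-1, a dimer that binds regulatory DNA. Fos (chromosome 12, 85473890 to 85477273, plus strand) was at 13.5, 15.1, 13.5 and 11.9 CPM in controls 1 to 4, and at 27.4, 29.8 and 14.9 CPM in mutants 6, 7 and 8. The controls were close together, mutants 6 and 7 stood well above them, and mutant 8 lay within the control range. Control nuclei averaged 13.5 ± 1.30 CPM (SD, n = 4), mutant nuclei 24.1 ± 7.99 CPM (SD, n = 3), and the log2 fold change was 0.83 (SE 0.21; edgeR adjusted p 0.0290). Mutant 8 and control 4 were also the 2 libraries without Y-linked reads, with 3 and 4 counts over 4 Y-linked genes against 5094 to 6644 in the other 5. Both were the lowest of their group for Fos. In the 5 libraries with Y-linked reads the log2 fold change of Fos was 1.03 (adjusted p 0.00149). As each group has just 1 such library, an effect of sex and one of that mouse cannot be told apart.

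Fosl2 encodes Fra-2, a longer-lived member of the same family, and lies on chromosome 5 (32135801 to 32157842, plus strand). Its values were 6.27, 7.25, 7.16 and 9.92 CPM in controls 1 to 4 and 15.2, 13.95 and 11.3 CPM in mutants 6, 7 and 8. Every mutant was above every control, and mutant 8 was again the lowest mutant. The log2 fold change was 0.82 (SE 0.20, adjusted p 0.0225). Fosb (chromosome 7, 19302696 to 19310051, minus strand), known for a truncated form that builds up under lasting stimulation, had 7, 5, 5 and 5 reads in controls and 13, 9 and 9 in mutants 6, 7 and 8. Its groups did not overlap either, at 0.378 to 0.555 CPM in controls and 0.704 to 1.02 CPM in mutants. With no filter on low counts its log2 fold change was 0.97 (SE 0.59, adjusted p 0.461), so no difference was detectable at this depth.

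Junb encodes a Jun partner of AP-1 (chromosome 8, 84974484 to 84978718, minus strand). It stood at 16.3, 16.6, 15.5 and 15.7 CPM in controls 1 to 4 and at 17.6, 17.3 and 17.7 CPM in mutants 6, 7 and 8. The groups did not overlap, but the gap was narrow and the gene did not pass, its log2 fold change being 0.13 (SE 0.13; adjusted p 0.647). Of its exonic bases 7.52%, and of its span 8.29%, are shared with Prdx2 on the opposite strand. Whether the counting used strand or the whole span is not stated. The other AP-1 genes were Fosl1, Jun, Jund, Maff, Atf3, Batf and Batf3, of which 4 had enough reads and 0 passed. Their log2 fold changes were 0.84 for Fosl1 (SE 0.39), 0.37 for Jun (SE 0.19), 0.29 for Jund (SE 0.21) and 0.21 for Maff (SE 0.33). Of exonic bases, Fosl1 shares 57.2% with Ccdc85b, Jund 52.6% with Gm11175 and Jun 7.28% with Junos. At an unadjusted p under 0.05, none of these 4 passed either.

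Npas4 encodes a transcription factor that pairs with ARNT proteins and is induced by calcium entry more selectively than the Fos genes. The gene lies on chromosome 19 (4984355 to 4990316, minus strand). The values were 3.89, 8.77, 8.98 and 6.53 CPM in controls 1 to 4, from 49 to 118 reads, and 16.4, 17.99 and 11.3 CPM in mutants 6, 7 and 8, from 144 to 210 reads. All mutants exceeded all controls, and control 1 was the lowest of all libraries. The mean of 7.04 ± 2.38 CPM (SD, n = 4) compares with 15.2 ± 3.52 CPM (SD, n = 3), and the log2 fold change was 1.11 (SE 0.27; adjusted p 0.0221). The partners Arnt (log2 fold change -0.12, SE 0.11) and Arnt2 (-0.08, SE 0.16) did not pass.

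The NR4A genes encode orphan nuclear receptors, which act on their targets without a known hormone. Nr4a1 (chromosome 15, 101254269 to 101274795, plus strand) was the best counted member, with 510 to 1119 reads. It was at 40.45, 53.1, 53.0 and 61.6 CPM in controls 1 to 4 and at 87.5, 74.5 and 70.6 CPM in mutants 6, 7 and 8. The groups did not overlap, and the log2 fold change was 0.58 (SE 0.14, adjusted p 0.0232). Nr4a3 (chromosome 4, 48045153 to 48086447, plus strand) was at 5.23, 12.1, 7.69 and 7.34 CPM in controls 1 to 4 and at 18.2, 12.8 and 14.5 CPM in mutants 6, 7 and 8. Here control 2 came close to mutant 7. The log2 fold change was 0.90 (SE 0.25, adjusted p 0.0412). The remaining member of the family, Nr4a2, had an unadjusted p under 0.05 but did not pass (log2 fold change 0.49, SE 0.20; adjusted p 0.154), with every mutant at 8.21 CPM or more and every control at 7.82 CPM or less.

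The EGR genes encode zinc finger transcription factors. Egr3 (chromosome 14, 70077203 to 70082614, plus strand) was at 5.55, 3.63, 2.89 and 5.73 CPM in controls 1 to 4 and at 8.37, 6.33 and 9.62 CPM in mutants 6, 7 and 8. The groups did not overlap, but the controls were spread widely. The log2 fold change was 0.87 (SE 0.27), and the adjusted p of 0.0658 missed the threshold. Egr1 had 42.2, 41.8, 41.6 and 38.15 CPM in controls 1 to 4 and 44.9, 38.6 and 50.8 CPM in mutants 6, 7 and 8. Mutant 7 sat among the controls, and the log2 fold change was 0.13 (SE 0.12, adjusted p 0.599). Neither Egr2 (log2 fold change 0.86, SE 0.32, adjusted p 0.121) nor Egr4 (0.52, SE 0.21, adjusted p 0.160) passed. Both had an unadjusted p under 0.05.

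Arc encodes a protein of the synapse that promotes the removal of AMPA-type glutamate receptors (chromosome 15, 74669083 to 74672570, minus strand). It was at 14.0, 16.3, 23.0 and 27.1 CPM in controls 1 to 4 and at 27.6, 24.1 and 28.3 CPM in mutants 6, 7 and 8. Controls 3 and 4 were near the mutants, and control 4 was above mutant 7. Its log2 fold change of 0.41 (SE 0.20) did not pass (adjusted p 0.270). It passed in 1 of the 7 fits without 1 library, that without control 4 (log2 fold change 0.58, adjusted p 0.0316). Without control 1 the values were 0.27 and 0.353, and without control 2 they were 0.32 and 0.491.

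**Figure D2:**
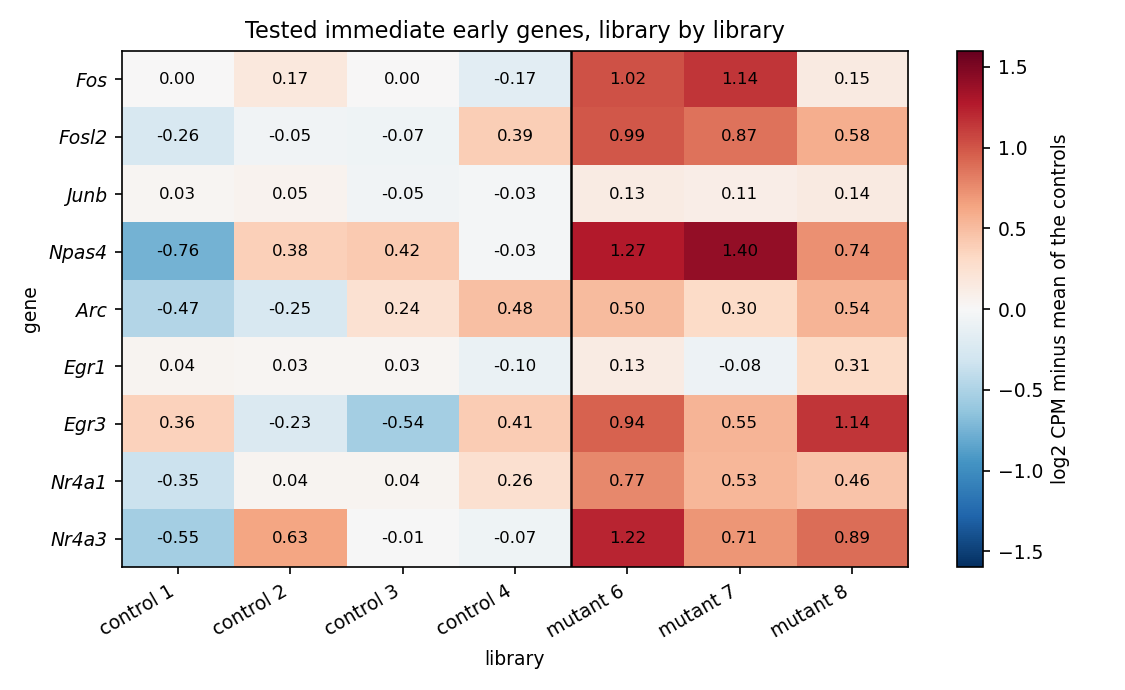
Log2 CPM of the 9 tested immediate early genes (rows) in each library (columns) minus the mean of the 4 controls, with the difference printed in each cell. Red cells fill the mutant columns for Npas4, Nr4a3, Egr3, Fosl2 and Nr4a1, whereas Junb and Egr1 stay near 0 and Fos is at 0.15 in mutant 8.

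The mutants did not share 1 order across the genes. Every member had its highest value in a mutant: mutant 6 was the highest library for 4 genes (Fosb, Fosl2, Nr4a1 and Nr4a3), mutant 8 for 4 (Junb, Arc, Egr1 and Egr3) and mutant 7 for 2 (Fos and Npas4). The share of all genes with their highest value in a mutant was not measured, so this count has no reference. Mutant 6 was the lowest mutant for 0 genes, and mutants 7 and 8 for 5 each. Among the controls, control 1 was the lowest for 5 genes, Fosl2, Npas4, Arc, Nr4a1 and Nr4a3. Averaged over the 9 tested genes, log2 CPM lay 0.78, 0.62 and 0.55 above the control mean in mutants 6, 7 and 8. The controls lay between -0.22 (control 1) and 0.12 (control 4). Summed over the 10 genes, the level was 148 to 184 CPM in controls and 230 to 264 CPM in mutants.

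Levels of different genes were compared as mean CPM per kilobase of exon. In controls Nr4a1 was the highest, at 14.8 ± 2.48 (SD, n = 4), followed by Egr1 at 9.13 ± 0.419. Junb (6.97 ± 0.234), Arc (6.58 ± 1.97) and Fos (5.74 ± 0.551) came next, and the ranges of Junb and Arc overlapped, as did those of Arc and Fos. A lower set held Npas4 (1.70 ± 0.575), Nr4a3 (1.35 ± 0.481), Egr3 (1.01 ± 0.320) and Fosl2 (0.790 ± 0.163), in which each gene overlapped the next. Fosb was the lowest, at 0.0688 ± 0.0136. In mutants (n = 3) Fos came second to Nr4a1, at 10.2 ± 3.40 CPM per kilobase, with a range that overlapped that of Egr1 (9.98 ± 1.35). If intron reads were counted, which the sources used here do not state, long genes would be too high on this scale. Nr4a1 spans 20.5 kb with 3.51 kb of exon, and Egr1 spans 5.16 kb with 4.48 kb of exon. Srf shares 100% of its span but 0% of its exonic bases with other genes, and was listed at 0. Whether reads were counted over the whole span of a gene was not tested, so this order is uncertain.

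Other genes of the activity programme were grouped by role. Of 18 further rapid early genes 17 were tested, and 1 rose and 3 fell, with a median log2 fold change of 0.06. Sik1, a kinase that restrains the CREB coactivators, had a mean of 16.6 ± 4.23 CPM in controls and rose to 30.3 ± 3.52 CPM, by 0.86 on the log2 scale (SE 0.19; adjusted p 0.0121). It did not pass without mutant 6 or without mutant 7. The genes that fell were Trib1, a pseudokinase that directs protein breakdown (log2 fold change -1.50, SE 0.21, adjusted p 0.000777), Arl4d, a small GTPase (-0.96, SE 0.23, adjusted p 0.0224), and Ier5, a nuclear early response protein (-0.86, SE 0.18, adjusted p 0.00867). Trib1 was at 7.41 to 8.57 CPM in controls and 2.66 to 2.89 CPM in mutants, and passed in each of the 7 fits without 1 library. Ier5 did not pass without mutant 7, and Arl4d not without control 2, control 3, mutant 6 or mutant 7. Klf10 (0.89, adjusted p 0.0521) and Gadd45g (0.65, adjusted p 0.0575) lay just beyond the threshold. In the other direction, Ier2 had an unadjusted p under 0.05 but did not pass (-0.44, SE 0.19, adjusted p 0.202). Every mutant was below every control for Ier2. Homer1, whose short form is induced by activity, had a log2 fold change of 0.14 (SE 0.14). Csrnp1, which shares 100% of its span and 6.45% of its exonic bases with other genes, was listed at 0 in all 7 libraries.

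Late activity genes, which follow the early factors, moved in both directions. Of 14 listed genes 13 were tested, 3 rose and 2 fell, and the median log2 fold change was 0.23. Among those that did not pass, only Scg2 and Igf1 had an unadjusted p under 0.05, and both were lower. Scg2 lay just beyond the threshold (log2 fold change -0.53, SE 0.16, adjusted p 0.0640), with every mutant below every control. Igf1 was at -0.43 (SE 0.16, adjusted p 0.129). Pcsk1, an enzyme that cuts prohormones, rose, with a mean of 13.8 ± 3.59 CPM in controls and 31.0 ± 3.58 CPM in mutants (log2 1.17, SE 0.19; adjusted p 0.00238). Vgf, a precursor of secreted peptides, was at 78.9, 73.5, 81.0 and 85.2 CPM in controls 1 to 4 and at 119.9, 171.6 and 179.3 CPM in mutants 6, 7 and 8 (log2 fold change 0.98, SE 0.14, adjusted p 0.000899). Rgs2, a regulator of G protein signalling, rose by 0.73 on the log2 scale (SE 0.14, adjusted p 0.00529). Gpr3, a receptor that signals without a ligand, fell by 0.77 on the log2 scale (SE 0.14, adjusted p 0.00473), and Crh, a neuropeptide of some interneurons, fell by 0.74 (SE 0.19, adjusted p 0.0298). Pcsk1, Vgf, Rgs2 and Gpr3 passed in each of the 7 fits without 1 library, whereas Crh failed without control 2 or without any 1 of the mutants. Of the exonic bases of Gpr3, 7.46% are shared with Cd164l2. Bdnf, a growth factor made mainly by excitatory neurons, had a log2 fold change of 0.37 (SE 0.27).

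Feedback genes switch the response off. Of 9 tested genes 2 rose and 0 fell, with a median log2 fold change of 0.16. At an unadjusted p under 0.05, 4 of the 9 were higher (Dusp4, Dusp5, Dusp6 and Nab2) and 1, Spry4, was lower. Nab2 shares 42.2% of its exonic bases with other genes. Both genes that rose encode phosphatases that inactivate MAP kinases. Dusp4 was at 3.01, 3.78, 3.96 and 3.55 CPM in controls 1 to 4 and at 8.21, 9.18 and 5.71 CPM in mutants 6, 7 and 8 (log2 fold change 1.10, SE 0.23, adjusted p 0.0103). Dusp5 averaged 3.49 ± 1.62 CPM in controls and 8.18 ± 1.13 CPM in mutants (log2 1.23, SE 0.33; adjusted p 0.0337), and 22.1% of its exonic bases are shared with a gene on the opposite strand. Dusp4 did not pass without mutant 6 or mutant 7, and Dusp5 failed in 5 of the 7 fits without 1 library, those without control 2, control 3 or a mutant. The related Dusp1 (-0.19, SE 0.14) and Dusp6 (0.32, SE 0.13) did not pass.

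The upstream kinases and transcription factors carry the signal to the early genes. Of 27 genes 26 were tested by edgeR and 0 passed, with a median log2 fold change of 0.00 and a range from -0.31 (Camk2a) to 0.33 (Map2k1). At an unadjusted p under 0.05, 2 were higher (Map2k1 and Rps6ka5) and 1 was lower (Camk2a). DESeq2 and limma-voom each called 1, Map2k1, a kinase of the MAP kinase cascade. Most calls came with 1 surrogate variable, where Map2k1, Mapk3, Crtc1 and Rps6ka5 were higher and Camk2a was lower. Creb1, which encodes CREB, had a log2 fold change of 0.03 (SE 0.11). Srf was listed at 0 in all 7 libraries and gives no value. Its span is shared at 100% with Gm26904 on the opposite strand and Mir6976 on the same strand.

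**Figure D3:**
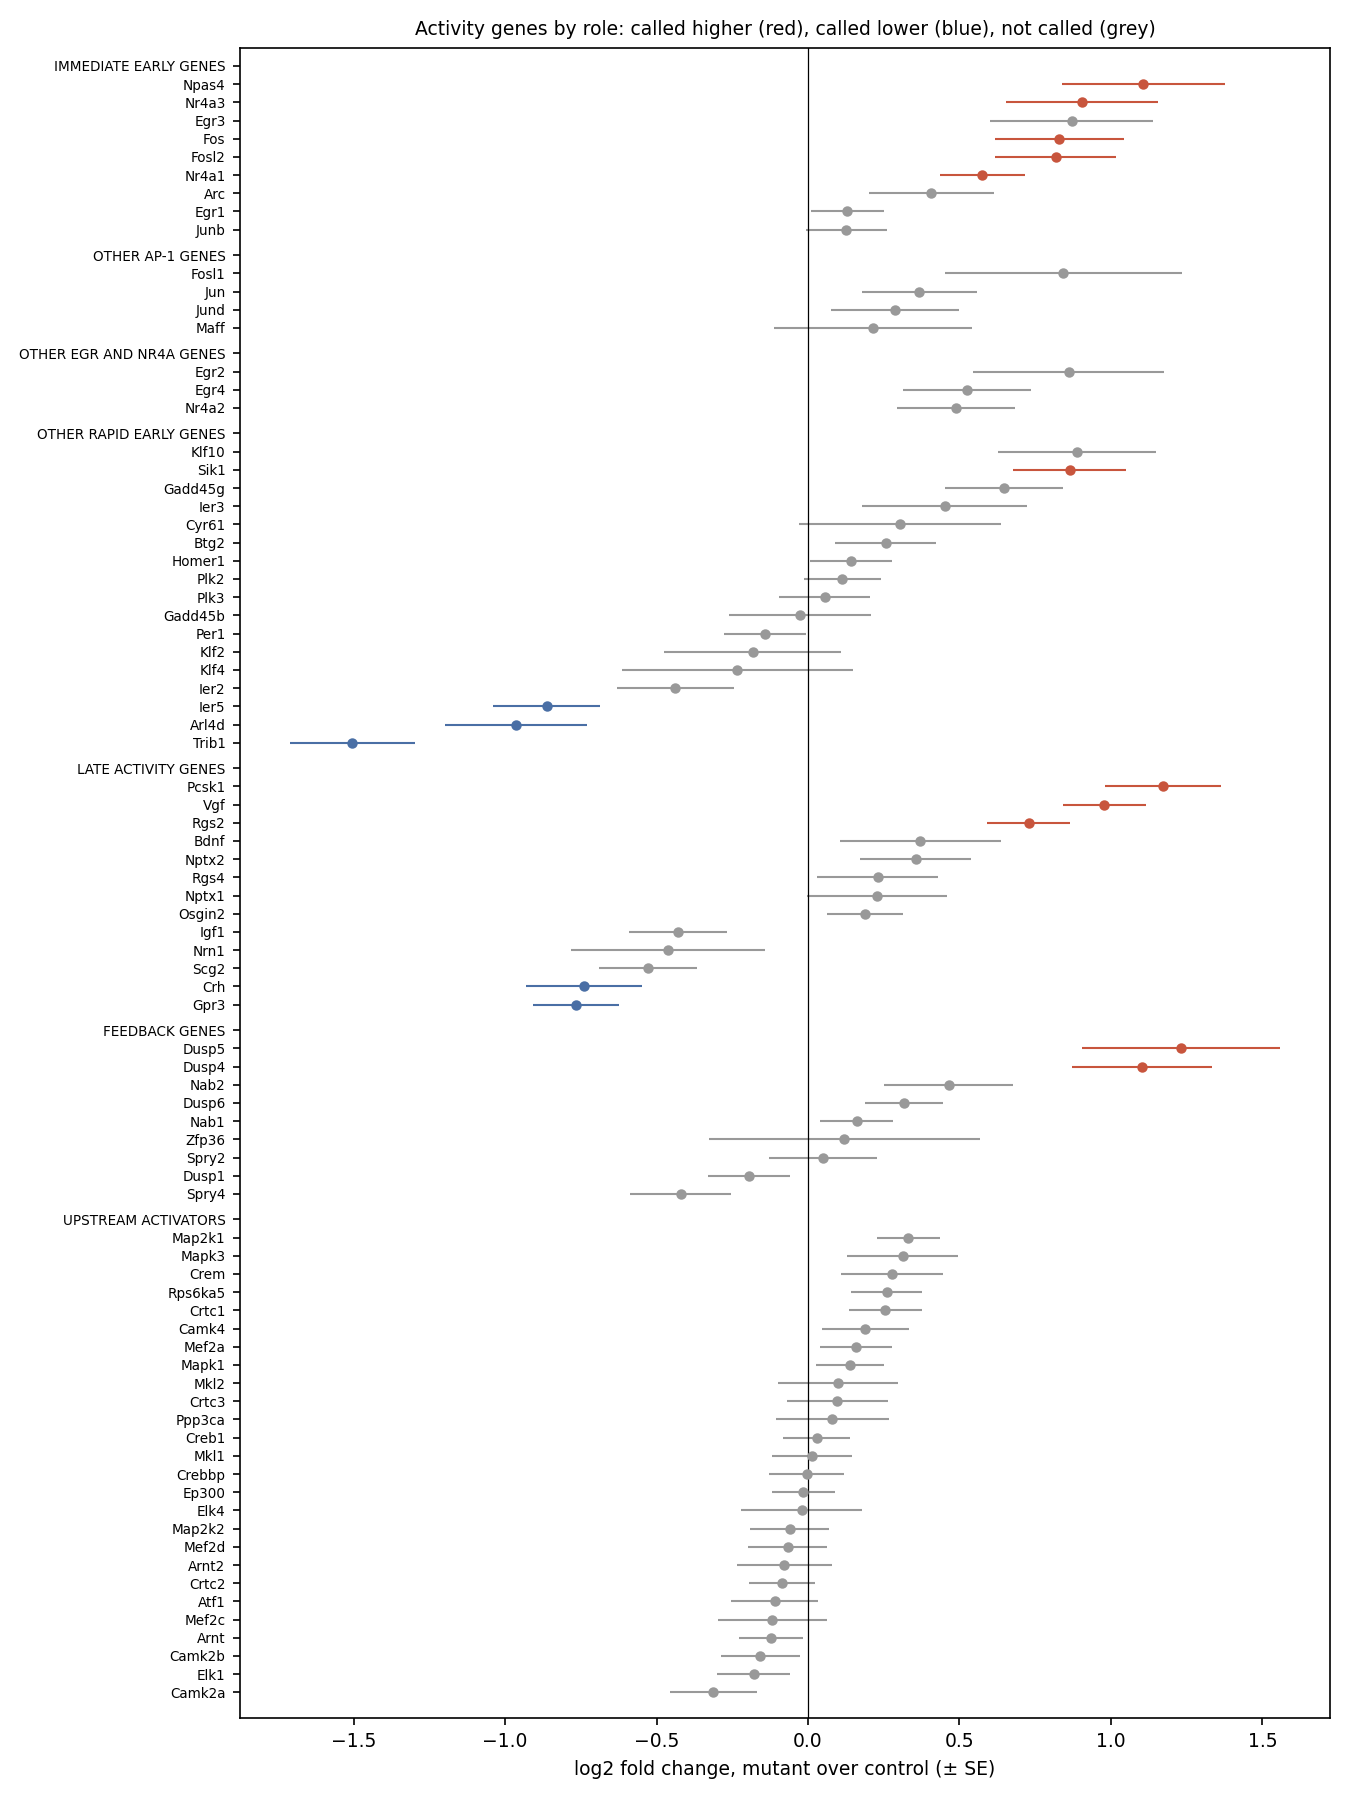
Log2 fold change of mutant over control with its SE for each tested gene of the activity programme, grouped by role. Red and blue points passed the threshold upward and downward, and grey points did not pass: 5 of 9 immediate early genes are red, and all 26 upstream genes are grey.

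Several library properties were measured beside these counts. Totals ran from 10747169 to 13804734 counts. Thra itself was at 105.5 to 125.5 CPM in controls and 77.6 to 96.3 CPM in mutants (log2 fold change -0.39, SE 0.11, adjusted p 0.0543). The GABAergic markers Gad1, Gad2, Slc32a1 and Dlx2 were not called by edgeR (unadjusted p 0.287 to 0.886), and Dlx1 was listed at 0. Gad1, which encodes an enzyme of GABA synthesis, was at 520.1 to 660.2 CPM in controls and 586 to 664 CPM in mutants. The 10 glutamatergic markers, whose cells express most of these early genes strongly, summed to 258 to 393 CPM in controls and 237 to 298 CPM in mutants, with 0 of 10 called and a median log2 fold change of -0.04. None of the 10 was at 0, with Slc17a7 at 46.9 to 94.5 CPM in controls against 47.7 to 84.2 CPM in mutants. Of the glial lists, astrocyte markers summed to 370 to 537 CPM in controls and 317 to 356 CPM in mutants (Gfap listed at 0), with Slc4a4 called lower. Microglial markers summed to 68.0 to 84.1 CPM in controls and 82.0 to 87.6 CPM in mutants, with 0 of 6 called (P2ry12 and Itgam listed at 0). Oligodendrocyte markers summed to 158 to 195 CPM against 175 to 209 CPM, and 1 of 8, Mog, was called higher (log2 fold change 0.93, SE 0.18). Endothelial markers summed to 57.3 to 132 CPM against 56.4 to 87.7 CPM, with 0 of 8 called and all 8 fold changes below 0. Markers of striatal projection neurons summed to 235 to 274 CPM in controls and to 282 to 344 CPM in mutants, where 1 of 8, Rgs9, was called higher (0.81, SE 0.17) and the median was 0.02. The part of these cells in the result was not tested.

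Markers of classes within the sorted population did differ. The 6 somatostatin neuron markers summed to 861 to 1002 CPM in controls and 1407 to 1721 CPM in mutants, with 3 of 6 called higher and none at 0. Pvalb was at 35.7 to 47.8 CPM in controls and 1.29 to 2.58 CPM in mutants, and 3 of 6 parvalbumin neuron markers (Pvalb, Syt2 and Kcnc1) were called lower. The sums of that list overlapped, at 1792 to 2819 CPM in controls and 1996 to 2253 CPM in mutants, and most of each sum was Kcnc2 (log2 fold change 0.32, SE 0.21). Tac1 was at 105 CPM on average in both groups. Of the 5 tested VIP neuron markers 3 were called higher (Tac2, Cck and Npas1), with Crispld2 listed at 0, while Vip itself was at 178 CPM in controls and 148 CPM in mutants on average (-0.27, SE 0.19). The LAMP5 list had 1 gene called higher and 1 lower of 6. In RNA from sorted pools, more cells of a type and more RNA per cell cannot be told apart, and the part of these classes in the early gene levels was not tested.

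The length of genes also set libraries apart. Genes under 10 kb took 9.69% of counts in control 4 and 15.8% in control 1, against 11.8% to 12.6% in mutants. Of the 10 immediate early genes 7 are shorter than 10 kb. Tested genes of that length had a median log2 fold change of -0.07, and 2.98% of them were called higher. With an offset for gene length, 6 of the 9 genes passed, Egr3 in addition, where 8.18% of all genes were called higher. Leaving out controls 1 and 4 together also gave 6, against 8.17% of all genes, a choice made after seeing the data.

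**Figure D4:**
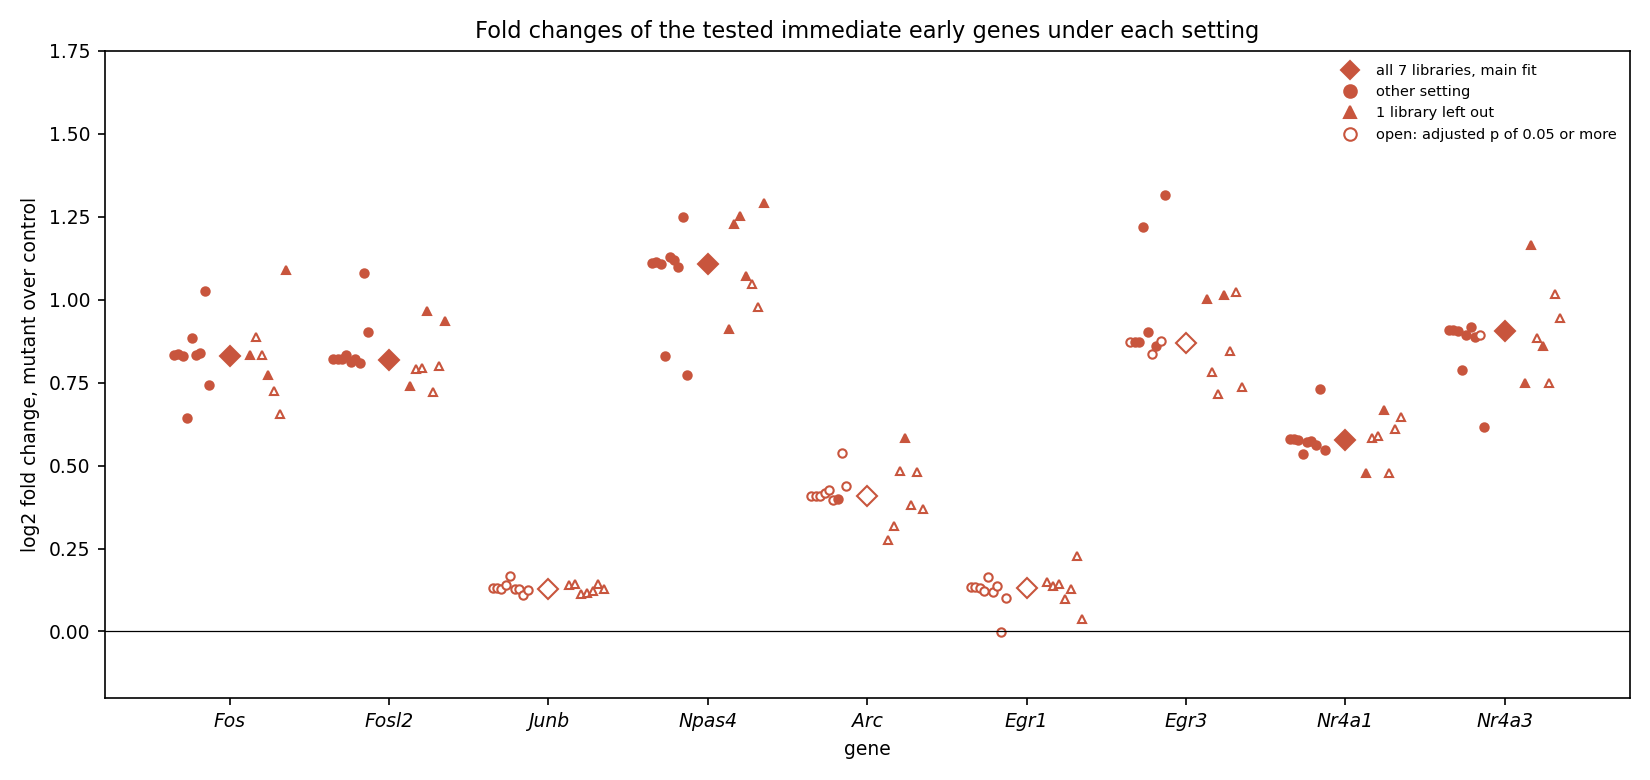
Log2 fold change of mutant over control for the 9 tested genes with all 7 libraries (diamond), in 9 other settings (circles) and with 1 library left out (triangles). Filled symbols have an adjusted p under 0.05: the fold changes stay above 0 except for Egr1 in 1 setting, while many fits without 1 library lose the threshold.

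The fold changes were steadier than the calls. In the 9 other settings Fos, Fosl2, Npas4 and Nr4a1 passed in 9, and Nr4a3 in 8, the exception being the libraries with Y-linked reads alone (log2 fold change 0.89, adjusted p 0.0807). Egr3 passed in 6 of the 9 and Arc in 1, with 1 surrogate variable. The share of all genes called higher was 4.68% with RLE scaling, 5.96% with DESeq2, 3.14% with no filter, 9.59% with limma-voom, 5.16% with Y-linked reads as a covariate, 11.2% with 1 surrogate variable and 4.40% in the libraries with Y-linked reads. Leaving out 1 library moved the log2 fold change of Npas4 between 0.91 and 1.29, that of Fos between 0.65 and 1.09, that of Fosl2 between 0.72 and 0.97, that of Nr4a1 between 0.48 and 0.67 and that of Nr4a3 between 0.75 and 1.16. Their adjusted p-values reached 0.124, 0.178, 0.118, 0.133 and 0.198. Without mutant 6 or mutant 7 none passed, where 2.15% and 2.13% of all genes were called higher. Without control 3 only Npas4 passed (3.04% of all genes), and without control 2 Npas4 and Nr4a3 did (3.12%). Without mutant 8 Fos, Fosl2 and Npas4 passed (2.37%). Without control 1 there were 6 (5.85%), and without control 4 there were 7 (7.47%).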

How the data were processed

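Nuclear RNA of sorted cortical GABAergic nuclei was sequenced after SMART-Seq v4 and Nextera XT library preparation, per the labels' protocols. The authors deposited raw counts per gene for 8 libraries, with no normalization that the labels record. The submitters' processing notes name Bowtie2 2.5.3 and the builds mm10 and GRCm38, and the counting program, strand setting and annotation are not given in the sources used here. All 55450 gene identifiers matched GENCODE M21 (GRCm38), which supplied symbols and coordinates. The library number in the labels and that in the table's name differ for control 4 and mutants 6 to 8, and tables were assigned by sample record.

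The counts were fitted with edgeR 4.0.16 under R 4.3.3: filterByExpr (least count 10, least total 15), TMM scaling, and a robust quasi-likelihood fit with group as the only term. P-values are two-sided and adjusted by Benjamini-Hochberg over 16448 genes. The SE is the log2 fold change divided by the square root of F. Alternatives used RLE scaling, DESeq2 1.42.0, no filter, limma 3.58.1 voom with quality weights, a gene length offset, Y-linked reads, sva 3.50.0 and left-out libraries. The smoothed length trend used a span of 0.3, and log2 CPM a prior count of 2. On counts simulated for this comparison (16182 genes), the fit recovered 65 of 97 genes changed by a log2 of 1 and 88 of 94 changed by 2, with 14 false calls. The simulated libraries had no trend with gene length and no shift of single libraries, so the fit may do less well on the real counts.

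The members and lists were chosen with earlier results of these data known. Named genes were the 10 members, Thra, every called gene of the activity lists, and the 3 other genes of at least 5 CPM with the most similar profile; other names in the text, such as Map2k1, Klf10 and Hspa1b, were chosen after their values were seen. PCR reads without molecular identifiers are not independent molecules.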

Additional observations from a re-analysis of the deposited data

Results flagged for a closer look

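A single library far from the rest was looked for among the 4 controls in the CPM of 25 named genes, and 3 genes had one, where chance gives about 1.25. In control 1 Fosb reached 0.555 CPM, with 0.378 to 0.403 CPM in the other controls, a difference of 7 reads against 5. Egr1 was at 38.15 CPM in control 4, below 41.6 to 42.2 CPM in the other controls. Ier5 was at 19.2 CPM in control 1, above 14.0 to 14.5 CPM in the others. Control 1 and control 4 are also the 2 controls at the ends of the trend with gene length. In Ier5 every mutant stayed below every control, at 7.89 to 9.15 CPM, and the gene passed in each fit without 1 library except the fit without mutant 7 (log2 fold change -0.81, adjusted p 0.0580).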

How the results depend on the processing

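The count of immediate early genes called higher was 5 and ran from 4 (libraries with Y-linked reads) to 7 (1 surrogate variable) over the other settings, and from 0 to 7 without single libraries. None was called lower in any of these fits, in which 2.22% to 11.4% of all genes were called lower. Their median log2 fold change of 0.82 was 0.64 with limma-voom and 0.62 without controls 1 and 4, and 0.65 to 0.78 without single libraries. Over all genes 1549 were called, against 3147 with limma-voom, 2756 with the gene length offset, 3725 with 1 surrogate variable and 2778 without controls 1 and 4, and 734 to 2347 without single libraries. The causes were not tested. No paired analysis was possible because the replicate numbers of the groups, 1 to 4 and 6, 7, 8 and 10, are not shared. Members under about 10 reads per library, such as Fosb, are limited by depth.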

Other observations

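Genes of the stress response, which can also move with the handling of tissue, were listed to stand beside the early genes. Of 9 heat shock and stress genes 8 were tested and 0 were called by edgeR, and 2, Hspa1b (log2 fold change -1.38, SE 0.59) and Hspa8 (-0.42, SE 0.18), were lower at an unadjusted p under 0.05. The list summed to 230 to 327 CPM in controls and 218 to 273 CPM in mutants, with a median log2 fold change of -0.08. Hspb1 had too few reads to be tested.

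The genes whose profile over the 7 libraries lay nearest to the mean profile of the 9 tested immediate early genes were Ift57, Efcab6 and Tnrc18, out of 11788 candidates. The measure was the mean absolute difference of centred log2 CPM, which was 0.03 for Ift57, 0.05 for Efcab6 and 0.06 for Tnrc18, and 0.07 to 0.35 for the immediate early genes themselves. Ift57 (chromosome 16, 49699233 to 49765126), a gene of transport within cilia, was at 21.4 to 27.0 CPM in controls and 35.3 to 42.4 CPM in mutants. Efcab6 (chromosome 15, 83866712 to 84065379) was at 27.1 to 31.8 CPM in controls and 43.3 to 50.9 CPM in mutants. Tnrc18 (chromosome 5, 142724661 to 142817662) was at 78.2 to 102.1 CPM in controls and 125.8 to 176.9 CPM in mutants. Since the profile includes the difference between the groups, any gene with a similar difference comes near it.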
